A study of Drosophila melanogaster with 2 samples.

Results

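Cytoplasmic ribosomal protein genes encode the proteins of the ribosome that works outside the mitochondria. They were taken as the protein-coding genes of the Ensembl annotation of Drosophila melanogaster (BDGP6) whose symbol begins with RpL, RpS or RpLP followed by a digit, together with sta. This rule gave 93 of 13945 protein-coding genes, 54 of the large subunit (RpL and RpLP) and 39 of the small subunit (RpS and sta). The rule reads symbols and no measured value. The data show where a tagged CG1663 protein, assayed as a transcription factor per the labels, lay near the starts of these genes.

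The measurement was chromatin immunoprecipitation followed by sequencing (ChIP-seq), in which DNA held by a protein is pulled down with an antibody and read. All material came from 1 group, whole pupae of age 24 hours with both sexes mixed, and every animal carried a transgene for CG1663 with GFP at its C terminus, which an anti-GFP antibody recognised. The 2 biological replicates are numbered 1 and 3. There was no second genotype or condition, and no untagged line was analysed here. Whole animals mix all tissues, so a site held in few cells and a site held weakly in many cannot be told apart. Peak lists hold no expression levels, and the labelled stage and tissue were therefore not checked against markers.

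Ribosomal proteins assemble with ribosomal RNA into the large subunit, which joins amino acids, and the small subunit, which reads the messenger RNA. In flies, loss of 1 copy of many of these genes gives the Minute phenotype of slow development and thin bristles. Their promoters are known for a pyrimidine-rich initiator, called the TCT motif, at the base where transcription starts, in place of the initiator of most other genes.

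The starts of 8 of these genes are shown because they include bound genes with a summit close to the start and genes of paralog groups with and without one. Each window runs from 60 bases before an annotated start to 20 bases after it, 5′ to 3′ on the strand of the gene, and was read from the Release 6 (dm6) genome of RefSeq. Capitals mark a TCT initiator word (defined below) that begins within 10 bases of the start, the DNA replication-related element (DRE) TATCGATA, and the word CCGGAAA on either strand. The first 3 genes had a summit close to the start in the list of reproducible peaks. They are RpLP0, the base of the ribosomal stalk, at chr3L:22076032-22076112 on the plus strand, RpL14 at chr3L:8600946-8601026 on the plus strand, and RpS29 at chr3R:9778037-9778117 on the plus strand.
RpLP0: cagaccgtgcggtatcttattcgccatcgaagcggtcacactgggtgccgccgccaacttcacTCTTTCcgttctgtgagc
RpL14: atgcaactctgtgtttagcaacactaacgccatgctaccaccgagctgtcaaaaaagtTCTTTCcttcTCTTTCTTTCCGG
RpS29: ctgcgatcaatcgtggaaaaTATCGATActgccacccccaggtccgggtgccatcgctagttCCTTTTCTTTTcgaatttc
In RpL14 the CCGGAAA word, on the opposite strand, follows directly on an initiator word, and in RpS29 a pair of initiator words overlap each other.

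The tandem copies RpS14b, with a summit in that list, and RpS14a, without one, lie at chrX:7934838-7934918 and chrX:7933682-7933762, both on the plus strand. RpS19a, with a summit, lies at chrX:16637834-16637914 on the plus strand, and its paralog RpS19b, without one, at chr3R:23933510-23933590 on the minus strand. RpS28b, the member of its trio with a summit, lies at chrX:9554563-9554643 on the plus strand. RpS14b and RpS14a both hold an initiator word, in RpS19a such a word overlaps CCGGAAA on the opposite strand, and RpS19b holds none of the marked words.
RpS14b: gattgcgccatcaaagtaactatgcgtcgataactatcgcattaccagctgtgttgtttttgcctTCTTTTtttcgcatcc
RpS14a: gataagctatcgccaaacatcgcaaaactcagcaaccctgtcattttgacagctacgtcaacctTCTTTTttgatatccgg
RpS19a: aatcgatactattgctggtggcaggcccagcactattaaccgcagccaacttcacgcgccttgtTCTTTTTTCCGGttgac
RpS19b: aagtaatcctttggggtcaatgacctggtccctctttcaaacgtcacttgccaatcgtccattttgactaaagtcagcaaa
RpS28b: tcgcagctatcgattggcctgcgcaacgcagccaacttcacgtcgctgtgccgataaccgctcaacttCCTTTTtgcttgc

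The authors deposited 4 peak lists, from replicate 1, replicate 3, the pooled reads of both, and a list cut by IDR (irreproducible discovery rate), a measure of how reproducibly peaks are ranked. The first 3 lists held 30000 peaks each. The IDR-thresholded list held 9657 peaks, which were the 9657 strongest pooled peaks. A summit is the position of highest enrichment within a peak, and a gene is called bound here when a summit lay 500 bp or less from any of its annotated starts. Signal is the authors' value for each peak, comparable within 1 list only, and rank 1 is the strongest peak. Read totals are not part of these lists and the depth of the libraries is unknown. The exact 95% (Clopper-Pearson) intervals below cover counting error only. Genes are not replicates of a condition, and no test was run on these shares.

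Most ribosomal protein genes were bound, and the share was above that of protein-coding genes as a whole in every list. In the IDR-thresholded list 60 of 93 were bound, 64.5% (interval 53.9 to 74.2), beside 21.5% of all protein-coding genes. The whole replicate 1 list had 54, 58.1% (47.4 to 68.2), beside 31.3%, and the whole replicate 3 list had 80, 86% (77.3 to 92.3), beside 45.1%. The replicates thus differed from each other, but both shares lay above their own background, which was outside the interval each time. The replicate 1 count leaves out 14 genes of the IDR-thresholded list, at which the pooled signal was larger than that of replicate 3 alone, as given below. The whole pooled list had 72, 77.4% (67.6 to 85.4), beside 36.3%. When each replicate was limited to its 9657 strongest peaks, 41 genes (44.1%, 33.8 to 54.8) were bound in replicate 1, beside 18.6% of protein-coding genes, and 72 (77.4%) in replicate 3, beside 26.7%.

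Ribosomal protein genes have more annotated starts than the average protein-coding gene, with a mean of 1.7 against 1.41, and each start adds a window in which a summit can fall. Among the 48 with 1 start, 25 were bound in the IDR-thresholded list, 52.1% (37.2 to 66.7), beside 15.5% of all protein-coding genes with 1 start. Of the 45 with more starts, 35 were bound (77.8%, 62.9 to 88.8), beside 37.9% of all protein-coding genes with more starts. Neighbours were examined in the same way. Of the 38 ribosomal protein genes with another protein-coding start 500 bp or less away, 28 were bound, 73.7% (56.9 to 86.6), beside 34.5% of all protein-coding genes with such a neighbour. Of the 55 without one, 32 were bound (58.2%, 44.1 to 71.3), beside 15.6% of all protein-coding genes without one.

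The peaks at these genes were of middling strength. No ribosomal protein gene was bound by the 1000 strongest pooled peaks, which reached 3.44% of protein-coding genes, and 4 (4.3%) were bound by the strongest 3000, beside 8.68%. Between the ranks 3000 and 9657 the count climbed steeply, with 20 genes (21.5%) at 5000 peaks beside 13% of protein-coding genes, 50 (53.8%) at 7500 beside 17.9%, and the 60 given above at 9657. Beyond 20000 pooled peaks no further member was added, and the count stayed at 72. The replicates had the same shape at different depths. In replicate 1 the strongest 5000 peaks reached 6 genes (6.45%) beside 12.2%, and the strongest 7500 reached 32 (34.4%) beside 15.9%. In replicate 3 the strongest 3000 reached 8 genes (8.6%) beside 8.95%, and the strongest 5000 reached 39 (41.9%) beside 14.4%.

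**Figure D1:**
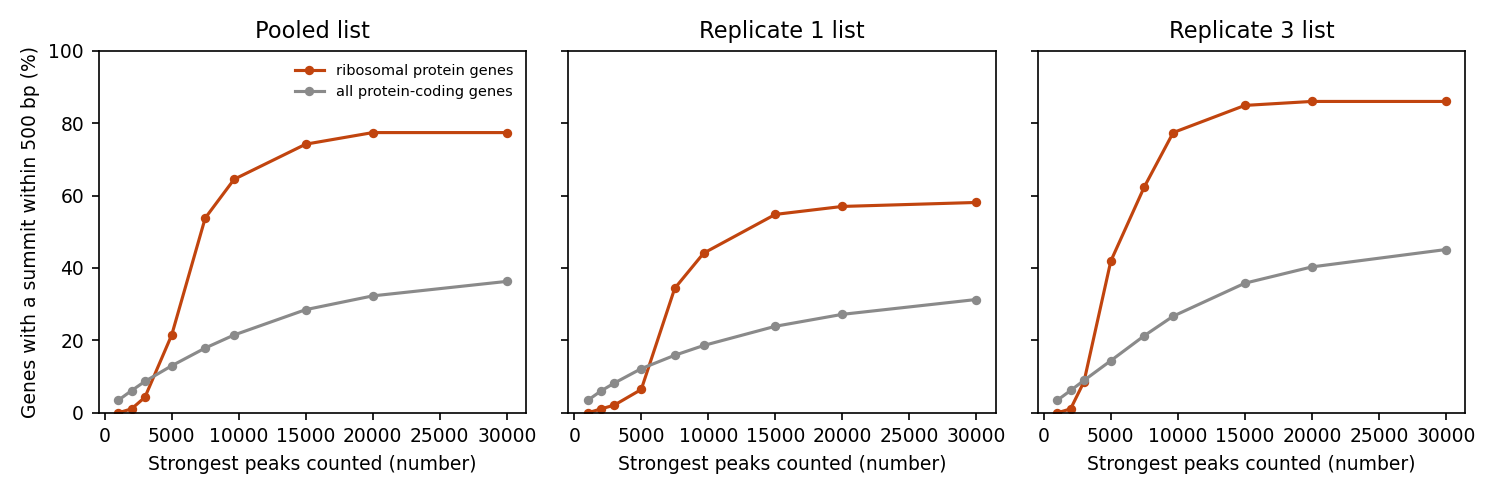
Share of genes with a summit within 500 bp (percent, vertical axis) against the number of strongest peaks counted (horizontal axis), in the pooled list and in each replicate list, for the 93 ribosomal protein genes and for all 13945 protein-coding genes. The curve of the ribosomal protein genes starts at 0 at 1000 peaks in all 3 lists and ends at 77.4% (pooled), 58.1% (replicate 1) and 86% (replicate 3) at 30000 peaks.

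The signals of the members lay in a narrow range. Across the 60 genes bound in the IDR-thresholded list the signal ran from 178.769 to 1239.17, with a median of 343.616 and quartiles of 256.683 and 414.251. All 2995 protein-coding genes bound in that list had a median of 460.079 with quartiles of 273.437 and 968.33, and a highest value of 10165.7. The median rank of the ribosomal protein genes stood at 55.8% of the way down the list, against 41.8% for all bound protein-coding genes. In the whole replicate lists, where weaker peaks of other genes are counted too, the order of the medians was the other way, with 149.362 against 139.648 in replicate 1 and 158.9 against 102.254 in replicate 3.

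The 10 strongest sites included those of RpL34b, RpS20, RpL32, RpL14, RpS27, RpL7, RpL23, RpS4 and RpL3. RpL34b (FBgn0037686, peak at chr3R:9401165-9401583) had a replicate 1 signal of 683.92, a replicate 3 signal of 550.765 and 1239.17 among IDR-thresholded peaks, with its summit at −185 bp, where a minus sign means upstream of the start. The summits of the replicates lay at −189 and −180 bp. It had the highest signal of all members in every list.

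RpL32 (FBgn0002626, peak at chr3R:30046083-30046486), widely used as a reference gene in fly expression assays, followed the same pattern at a lower level. Replicate 1 gave a signal of 416.539, replicate 3 gave 283.136 and the IDR-thresholded list 695.154, at −131 bp. RpL14 (FBgn0017579, chr3L:8600809-8601096) had 289.76, 345.19 and 635.4 in the same order of lists, at −40 bp. RpS27 (FBgn0039300, chr3R:25247372-25247691) had 349.987, 239.164 and 594.52, at −19 bp in both the IDR-thresholded list and replicate 1. These 3 genes ranked no lower than 3879 in either replicate.

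RpS20 and RpL7 were high in the IDR-thresholded list and had no summit near the start in replicate 1. RpS20 (FBgn0019936, chr3R:20821862-20822234) had 751.385 there and 327.668 in replicate 3, and the nearest replicate 1 summit lay 7358 bp from its start. RpL7 (FBgn0005593, chr2L:10200909-10201176) had 569.596 and 265.542, with both summits at −37 bp. At RpL32, RpL14 and RpS27 the pooled signal was close to the sum of both replicate signals. At RpS20 and RpL7 the pooled signal was well above that of replicate 3. The missing entry alone does not show whether replicate 1 had enrichment at RpS20 and RpL7, and this was not tested.

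RpL3, a protein near the catalytic centre of the large subunit, and RpS4 had their summits inside the transcribed region. RpL3 (FBgn0020910, chr3R:11221801-11222091) had signals of 178.119, 267.777 and 446.317, again for replicate 1, replicate 3 and the IDR-thresholded list, at 49 bp. RpS4 (FBgn0011284, chr3L:13041620-13042001) had 190.746, 291.216 and 479.527, at 31 bp. Both ranked higher in replicate 3, RpL3 with 2871 against 5986 in replicate 1 and RpS4 with 2597 against 5622. On chromosome 2R, RpL23 (FBgn0010078, chr2R:22853925-22854137) had 338.286, 144.527 and 486.816 with its strongest summit at −359 bp. It ranked higher in replicate 1, with 3285 against 5678 in replicate 3.

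The 4 weakest members of the IDR-thresholded list were RpS14b, RpL37-1, RpS16 and RpL7A. RpS14b had a signal of 178.769, with 93.712 in replicate 1 and 88.2774 in replicate 3. RpL37-1 had 180.533, with 99.6717 in replicate 3 and no summit in replicate 1. RpS16 had 201.494, with 177.79 in replicate 1 and 61.8463 in replicate 3, and RpL7A had 206.213, with 81.8331 and 132.47. Their summits lay at 18, 7, −50 and 23 bp from the start, so these weak summits also lay 50 bp or less from a start.

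The shares of large and of small subunit genes were close in each whole list, with intervals that overlap largely. In the IDR-thresholded list 35 of 54 large subunit genes (64.8%, 50.6 to 77.3) and 25 of 39 small subunit genes (64.1%, 47.2 to 78.8) were bound, beside the same 21.5% of all protein-coding genes. The replicates did not give 1 order, with 30 large (55.6%) and 24 small (61.5%) in replicate 1, and 47 large (87%) and 33 small (84.6%) in replicate 3. The median signal in the IDR-thresholded list was 353.954 for the large and 290.838 for the small subunit. Among the stronger 50% of the IDR-thresholded peaks, 14 of 54 large and 4 of 39 small subunit genes were bound, beside 12.6% of all protein-coding genes. There the large subunit share lay above that of all protein-coding genes and the small subunit share slightly below it, with few genes in each. The median summit position was −38 bp for the large and −7 bp for the small subunit in the IDR-thresholded list and −59.5 and −21.5 bp in replicate 1. In replicate 3 the medians were 12 and 15 bp, so the subunits lay closer together there.

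The stalk of the large subunit, a flexible arm that recruits elongation factors, is built from RpLP0, RpLP1 and RpLP2. RpLP0 (FBgn0000100, peak at chr3L:22075949-22076233) had signals of 215.313 and 200.416 in replicates 1 and 3, and 415.854 in the IDR-thresholded list, at −19 bp. RpLP1 had 124.257, 164.001 and 275.015, at −49 bp. RpLP2 was not bound in the IDR-thresholded list or in replicate 1, and had 142.964 in the pooled list and 74.1404 in replicate 3. The signals of the stalk genes thus ran in the order RpLP0, RpLP1, RpLP2 in each list that held them.

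Among small subunit genes, sta, which encodes the fly counterpart of the laminin receptor protein, had signals of 141.403 and 151.103 in replicates 1 and 3, and 309.207 in the IDR-thresholded list, at −25 bp. RpS3, which sits at the entry of the messenger RNA channel, was outside the IDR-thresholded list, with 131.018 in the pooled list, 41.004 in replicate 1 and 108.385 in replicate 3. RpS6, the target of the S6 kinase of the TOR pathway, had 185.593 and 103.654 in replicates 1 and 3, and 279.522 in the IDR-thresholded list. Its only summit in the IDR-thresholded list lay at −397 bp, the farthest from a start among the closest summits of the 60 bound members. Replicate 1 had its closest summit at −388 bp and replicate 3 at 92 bp.

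By chromosome arm, the IDR-thresholded list had 13 of 15 members bound on X (86.7%, 59.5 to 98.3), beside 23.6% of all protein-coding genes there, and 11 of 14 on 3L (78.6%, 49.2 to 95.3), beside 22.7%. On 3R it had 14 of 23 (60.9%, 38.5 to 80.3), beside 21.6%, on 2R 12 of 21 (57.1%, 34 to 78.2), beside 19.8%, and on 2L 9 of 19 (47.4%, 24.4 to 71.1), beside 20.6%. On each of these 5 arms the share of the members lay above that of the arm, and the intervals of the arms overlap. The small chromosome 4 held 1 member, RpS3A (FBgn0017545), with its peak at chr4:67120-67364. It was bound with a signal of 350.0, at −8 bp, beside 6.25% of the protein-coding genes there, and its peak was 1 of 11 of that list on chromosome 4. RpS3A had 186.265 in replicate 3 and no summit in replicate 1.

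The summits lay close to annotated starts. In the IDR-thresholded list the summit closest to each of the 60 bound genes had a median position of −22 bp (quartiles −77.25 and 18), and 40 of them (66.7%) lay 50 bp or less from a start. All 2995 bound protein-coding genes had a median of −142 bp (quartiles −225.5 and −55), with 369 (12.3%) that close. Replicate 1 gave −28.5 bp, with 29 of 54 (53.7%) that close, against −113 bp and 17.9% for all genes bound there. Replicate 3 gave 13.5 bp, with 50 of 80 (62.5%), against −57 bp and 30%. The replicates placed the median on different sides of the start, and in both it lay nearer to the start than that of all bound genes. Because a gene with several starts has more chances of a close one, the genes with 1 start were also taken alone. Their medians were −46 bp in the IDR-thresholded list, with 16 of 25 members (64%) 50 bp or less away, against −150 bp and 8.1% for all bound genes with 1 start. In replicate 1 they were −68 bp and 39.1%, against −135 bp and 12.8%, and in replicate 3 they were 19 bp and 65.8%, against −84 bp and 24%.

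**Figure D2:**
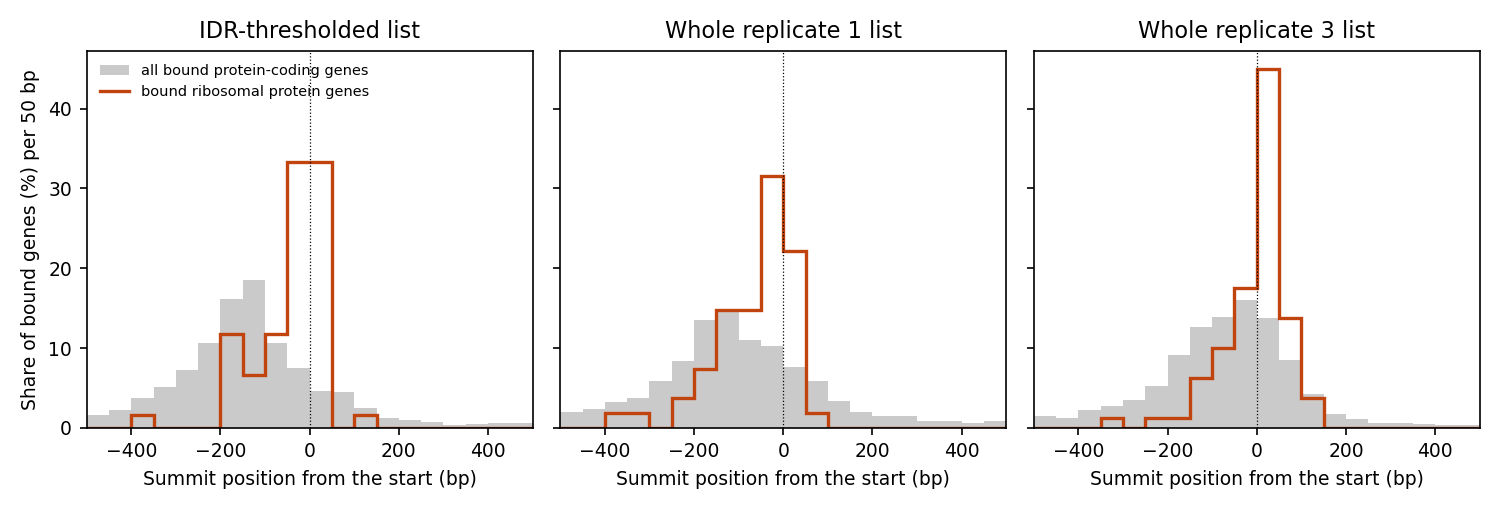
Position of the summit closest to a start (horizontal axis, bp, negative upstream) as the share of bound genes in bins of 50 bp (percent, vertical axis), for bound ribosomal protein genes (line) and all bound protein-coding genes (filled), in the IDR-thresholded list and both whole replicate lists. The line is highest next to 0 in each panel, with medians of −22, −28.5 and 13.5 bp, and the filled area lies further upstream, with medians of −142, −113 and −57 bp.

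Fewer summits lay upstream than at other genes in the IDR-thresholded list, 39 of 60 (65%) against 83.1%, and in replicate 3, with 37.5% against 68.1%. In replicate 1 the shares were near each other, 75.9% against 74.9%. Which side of the start a summit fell on thus differed between the replicates. RpL24 at −2 bp, RpL35A at 1 bp, RpL39 at 2 bp, RpS10b at 2 bp and RpS29 at −3 bp had IDR-thresholded summits almost at the annotated base.

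The replicates held summits at 52 members in common. Another 28 had one in replicate 3 alone and 2, RpL15 and RpL38, in replicate 1 alone. Across all protein-coding genes 3840 (27.5%) were in both lists, 2445 (17.5%) in replicate 3 alone and 524 (3.76%) in replicate 1 alone, so replicate 3 reached more genes in general. At the 52 shared members the median gap between the nearest summits of the replicates was 39.5 bp, against 23 bp at the 3840 shared genes, and 30 (57.7%) were 50 bp or less apart against 73.2%. Of the 52, 44 (84.6%) ranked higher in replicate 3, against 58.9% of the 3840. Their median rank was 6847 in replicate 1 and 4768 in replicate 3.

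**Figure D3:**
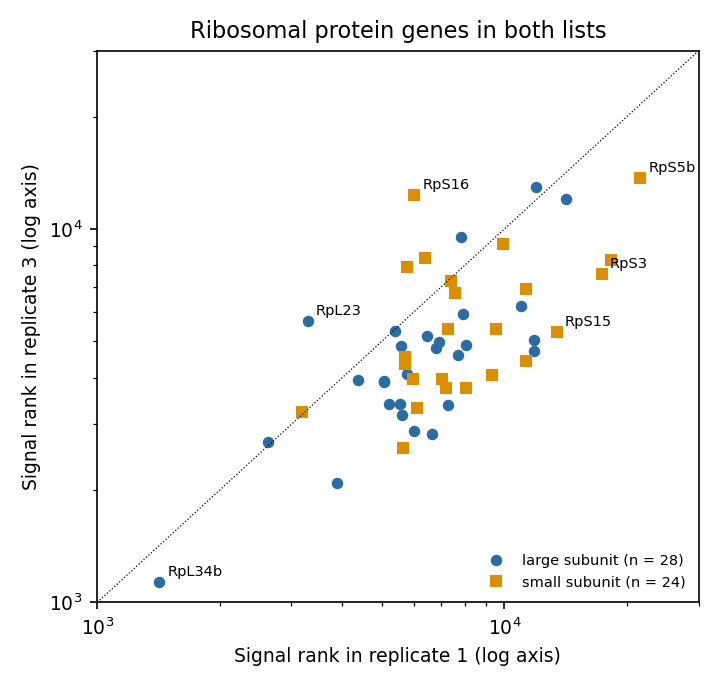
Signal rank of the 52 ribosomal protein genes bound in both whole replicate lists, in replicate 1 (horizontal, log axis) and replicate 3 (vertical, log axis), where rank 1 is the strongest peak, circles are large and squares small subunit genes, and the dotted line is equal rank. Of the 52 points, 44 lie below the line, with better ranks in replicate 3, and RpS16 (5996 and 12291) lies farthest on the other side.

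Large shifts toward replicate 3 were seen at RpS3, with rank 17326 in replicate 1 and 7586 in replicate 3, and at RpS15, with 13428 and 5301. The summits of RpS15 in the replicates were 3 bp apart, so the same site changed rank. The largest shifts the other way were at RpS16, with 5996 in replicate 1 and 12291 in replicate 3, RpL23, with 3285 and 5678, and RpS6, with 5756 and 7906. The RpS16 summits lay 185 bp apart.

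All 60 genes of the IDR-thresholded list had a replicate 3 summit, and 46 had one in replicate 1 too. Of all 2995 protein-coding genes bound in that list, 2647 had a summit in both replicates. Another 305 had one in replicate 3 alone and 38 in replicate 1 alone. A replicate 1 summit was thus missing at a larger share of the members. The 14 members without one included RpL7, RpS20, RpL26, RpL28, RpS3A, RpL10Ab, RpL13A, RpL36, RpL27, RpL35A, RpS2, RpL23A and RpL37-1. Their IDR signals ran from 180.533 at RpL37-1 to 751.385 at RpS20, so they were not only weak sites. Signals are otherwise not set against each other across lists, but at the 46 members in both replicate lists the IDR signal was 0.983 times the sum of the replicate signals (median, range 0.839 to 1.06), and replicate 3 made up 53.7% of it (29.7 to 72.9). At the 14 members the replicate 3 signal was 48.7% of the IDR signal (28.3 to 71.5), much the same share. The 305 bound protein-coding genes with a replicate 3 summit alone had 48.9%. The lists hold no replicate 1 value at these sites and do not show why. Whether replicate 1 had enrichment there was not tested, so whether its count is too low is not known. Of all protein-coding genes 36.3% were bound in the pooled list and 21.5% in the IDR-thresholded one. A further 12 members were in the pooled list without reaching the IDR-thresholded one, among them RpL10, RpL15, RpL35, RpL38, RpL40, RpLP2, RpS3, RpS5b, RpS14a and RpS24. Their pooled signals ran from 69.2072 at RpL40, which is made as a fusion with ubiquitin, to 158.598 at RpL35. Another 10 were in a replicate list but not in the pooled list, and the share of all protein-coding genes with this pattern is not given here. RpL5 was in both replicates, with 72.4749 in replicate 1 and 57.7492 in replicate 3. RpL6, RpL21, RpL29, RpL36A, RpL37A, RpL7-like, RpLP0-like, RpS26 and RpS27A, the other ubiquitin fusion, were in replicate 3 alone, from 45.5049 at RpS26 to 167.991 at RpS27A.

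The remaining 11 of 93 had no summit close to a start in any of the 4 lists. They were also the only members in neither replicate list, beside 7136 (51.2%) of all protein-coding genes. These 11 were RpL9, RpS30, RpL10Aa, RpL22-like, RpL24-like, RpL37-2, RpS10a, RpS15Ab, RpS19b, RpS28a and RpS28-like. The first pair are single genes, and the other 9 are members of paralog groups. Around RpL9 the nearest summit was 10665 bp away in the IDR-thresholded list and 7053 bp in replicate 3. Around RpS30 it was 14026 and 13863 bp away.

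Paralogs divided into a bound and an unbound gene with few exceptions. By symbol, 27 members form 13 groups of paralogs, and 14 of these genes were bound in the IDR-thresholded list. In 12 groups exactly 1 gene was bound, and in 1 group, RpL34a and RpL34b, both were, with signals of 375.11 and 1239.17. No group was without a bound gene. Outside the groups 46 of 66 members were bound, and for these counts too the share of all protein-coding genes in that list was 21.5%. Reads that match both copies of a pair may have been dropped or split before peaks were called, and their treatment is not given in the sources used here, so an unbound copy with nearly the same sequence is uncertain.

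**Figure D4:**
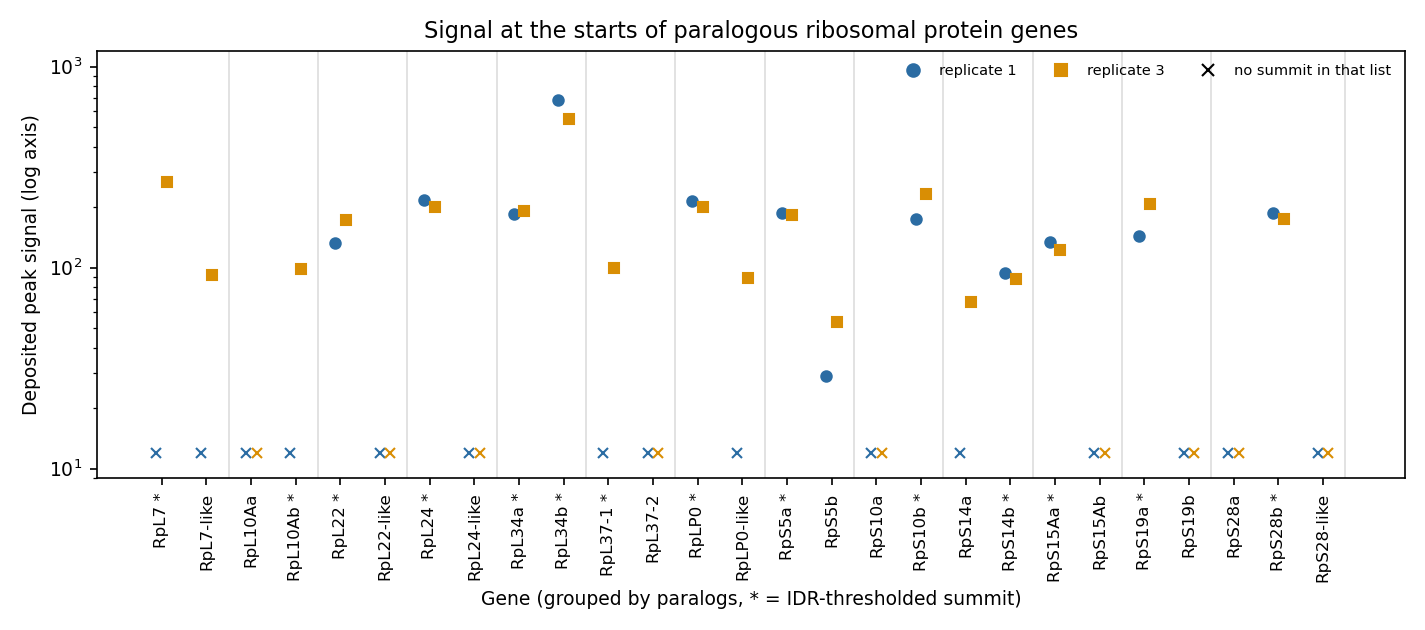
Deposited peak signal (vertical, log axis) at each of the 27 paralogous ribosomal protein genes in replicate 1 (circles) and replicate 3 (squares), with a cross near the lower edge where that list has no summit within 500 bp and an asterisk after genes bound in the IDR-thresholded list. In 12 of 13 groups 1 gene carries the asterisk, and 9 of the 13 genes without it have crosses in both replicates.

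Among large subunit groups, RpL24 had signals of 216.386 in replicate 1 and 201.352 in replicate 3, whereas RpL24-like, which resembles a yeast factor of ribosome assembly, had no summit. RpL22 had 132.365 and 173.14, and RpL22-like, a copy used in the testis, had none. RpL10Ab had 98.2965 in replicate 3 alone, and RpL10Aa had none. In each of these groups the copy without a summit is the one lacking an initiator word. RpL34a also lacks the word but was bound in every list, with 185.337 in replicate 1 and 192.402 in replicate 3. RpLP0-like, which resembles a yeast assembly factor too, had 88.7265 in replicate 3 alone, at −91 bp, less than the 200.416 of RpLP0 there. RpL7-like had 91.594 in replicate 3 alone, at −328 bp, beside 265.542 at RpL7. RpL37-2 had none, although it holds an initiator word.

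Among small subunit groups, RpS5a had 187.131 in replicate 1 and 182.093 in replicate 3, and RpS5b, a copy used in the female germline, had 28.817 and 53.8877. Both copies were thus bound in both replicates, and the second was the weaker in each. RpS10b had 174.307 and 233.668, RpS15Aa 134.757 and 122.179, RpS19a 143.694 and 208.284, and RpS28b 186.949 and 174.881. Their partners RpS10a, RpS15Ab, RpS19b, RpS28a and RpS28-like had no summit in any list. The tandem copies RpS14a and RpS14b differed less, with 67.1224 at RpS14a and 88.2774 at RpS14b in replicate 3. In replicate 1 RpS14b had 93.712, and RpS14a had no summit.

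About as many members shared their summit with a neighbouring gene as bound genes in general. In the IDR-thresholded list the strongest summit of 34 of the 60 bound members (56.7%) was also 500 bp or less from a start of some other gene, against 52.1% of all 2995 bound protein-coding genes, and for 30 (50%) that gene was protein-coding, against 48.9%. For 25 (41.7%) the summit was upstream of both starts of a divergent pair, against 37.9%. The protein-coding neighbour was the closer gene for 6 (10%), against 23.3%. The 30 members sharing a summit with a protein-coding gene had a median signal of 360.16 at a median position of −58 bp, with 26 upstream. The other 30 had 289.195 at 2 bp, with 13 upstream. Position and sharing thus moved together, and their parts in the result were not separated.

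The 7 strongest members each shared their summit with a divergent neighbour. RpL34b shared it with CG8132, whose start was nearer, with the summit at −84 bp from it. RpS20 shared with CG17271 (−174 bp), RpL32 with CG7943 (−178 bp) and RpL14 with Nelf-E (−87 bp), a subunit of the negative elongation factor. RpS27 shared with Nup37 (−125 bp), a nuclear pore protein, RpL7 with Ripalpha (−89 bp) and RpL23 with CG13531 (−197 bp). These sites can be assigned to either gene. RpS6 shared with bys (−152 bp from bys, −397 bp from RpS6), an assembly factor of the small subunit. RpL13 shared with Dref, the factor that recognises the DRE, and its summit lay at −90 bp from RpL13 and 6 bp from Dref. RpL28 shared with the translation initiation factor gene eIF1 (−308 bp).

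Sites with no other gene of any kind in reach numbered 26 (43.3% of the 60). RpS4, RpL26, RpL30, RpL24, RpS10b, RpL31, RpS5a, RpL27A, RpS28b and RpL11 were the 10 strongest of them, with IDR signals from 479.527 at RpS4 down to 353.954 at RpL11. RpL30, for example, had 157.58 in replicate 1 and 272.44 in replicate 3, and RpL31 had 141.022 and 230.081. RpL26 had 197.998 in replicate 3 and no summit in replicate 1.

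The promoters were read for known words, on both strands from 250 bases before to 50 bases after the 5′ end of each gene. A match is a description of letters and not a binding site. The TCT initiator was searched as 4 words, on the sense strand alone and beginning 10 bases or less from any start. The first was TCTTTT. A second was TCTTTC. The others, CCTTTT and then CCTTTC, differ from these in the first base. Of the 93 members, 77 (82.8%) held one, against 567 of all 13945 protein-coding genes (4.07%). By binding it was in 53 of 60 bound members (88.3%) and in 24 of 33 unbound ones (72.7%). The word usually began 1 to 5 bases after the annotated start, most often 3 bases after it, in 18 members.

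The share of bound genes was higher with the initiator word than without it, though among the members the intervals overlap. Of the 77 members with it, 53 were bound (68.8%, 57.3 to 78.9), and of the 16 without it 7 were bound (43.8%, 19.8 to 70.1). Every unbound member without the word belonged to a paralog group. Outside these groups the order turned. The members there without the word, RpS20, sta, RpL17, RpS2, RpS12 and RpL12, were all bound, beside 46 of all 66 members outside the groups. Among the 490 other protein-coding genes that held it, 32.4% were bound, which is below the share of the members with the word. Of all 2995 bound protein-coding genes 212 (7.08%) held it, so most bound promoters had none. In the paralog groups it was in 13 of the 14 bound genes and in 4 of the 13 unbound ones, RpL7-like, RpL37-2, RpS5b and RpS14a.

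The DRE, TATCGATA, was in 28 members (30.1%), in 33.3% of bound and 24.2% of unbound members, against 9.37% of all promoters. The core of Motif 1, GGTCACAC, another word of housekeeping promoters, was in 15 (16.1%) against 7.71%. The E box CACGTG, known as a Myc site, was in 9 (9.68%) against 4.24%. The variant CAGCTG was in 9 as well, against 17.7% of all promoters. The GAGA word, GAGAG, was in 16 (17.2%) against 29.8%. TATAAA was in 45 (48.4%) against 45.9%. For each of these 6 words the shares in bound and unbound members lay less than 10 percentage points apart.

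**Figure D5:**
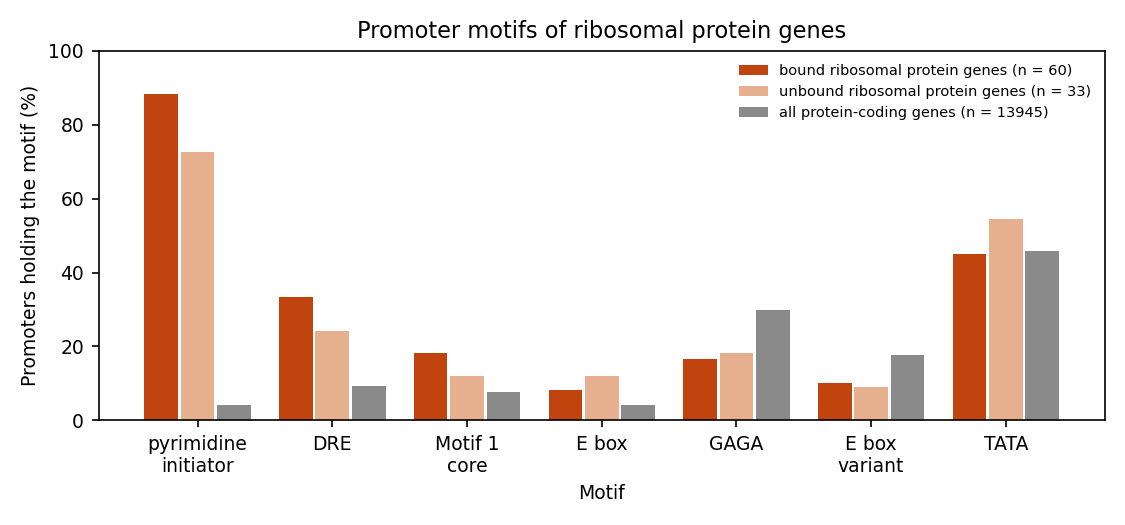
Share of promoters holding each word (percent, vertical axis) for the 60 bound and 33 unbound ribosomal protein genes and all 13945 protein-coding genes. The pyrimidine initiator stands at 88.3%, 72.7% and 4.07%, and the DRE at 33.3%, 24.2% and 9.37%.

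Words of 7 bases were counted on both strands, 50 bases to each side of the summit closest to the start. The 5 below were chosen after the data were seen, as those with the highest ratio to other promoters among words in at least 10 of the 60 member windows, so their counts only describe these windows. CCGGAAA was in 14 of 60 (23.3%), against 18 of 2238 windows at other protein-coding promoters (0.804%). ACCGGAA, which overlaps it, was in 10 windows (16.7%) against 0.715%. CGTTTCC, which can overlap it on the opposite strand, was in 11 (18.3%) against 0.67%. AAGTTGG was in 10 (16.7%) against 1.47%. GAAAAGA was in 11 (18.3%) against 2.32%, and its opposite strand holds the initiator word TCTTTT. Over whole promoters the shares in all members, in unbound members and in all protein-coding genes were 24.7%, 6.06% and 2.85% for CCGGAAA. They were 17.2%, 12.1% and 1.95% for ACCGGAA and 17.2%, 12.1% and 3.13% for CGTTTCC. They were 15.1%, 12.1% and 5.06% for AAGTTGG and 21.5%, 18.2% and 6.56% for GAAAAGA. The unbound members thus held each word less often than all members did, with the widest gap for CCGGAAA. All members include the unbound ones, and the unbound counts were small, from 2 genes for CCGGAAA to 6 for GAAAAGA. The words were picked from windows at bound members, so bound and unbound members are not compared on equal terms. The members' windows lie at the start and those of other genes further upstream, so position and gene class cannot be told apart in these shares. The median GC content of the promoters was 37.9% in bound members, 35.2% in unbound members and 37.9% in all protein-coding genes.

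Genes with related work had lower shares in the IDR-thresholded list, nearer to the 21.5% of all protein-coding genes, and summits further from the start. Mitochondrial ribosomal proteins (symbols beginning with mRpL or mRpS) and translation factors (eIF, eEF or eRF) were taken by symbol, and the assembly genes from a written list of textbook factors. The gene eIF6 is in both of the latter sets and is counted in each. Of the mitochondrial ribosomal protein genes 23 of 73 were bound in the IDR-thresholded list (31.5%, 21.1 to 43.4), with a median position of −160 bp, none within 50 bp of a start and a median signal of 653.709. Of the translation factors 17 of 54 were bound (31.5%, 19.5 to 45.6), at −52 bp, 4 of them within 50 bp, with 412.411. Of 27 genes for ribosome assembly and the nucleolus 10 were bound (37%, 19.4 to 57.6), at −146.5 bp, 1 of them within 50 bp, with 637.448. In replicate 1 the shares were 32.9%, 29.6% and 48.1% in this order, beside 31.3% of all protein-coding genes and 58.1% of the cytoplasmic ribosomal proteins. In replicate 3 they were 57.5%, 68.5% and 59.3%, beside 45.1% and 86%. By median the bound translation factors lay nearer to the start than all bound genes in each replicate, and further than the cytoplasmic ribosomal proteins. Their medians were −88.5 bp in replicate 1, with 31.2% within 50 bp, and −23 bp in replicate 3, with 40.5%. For all bound genes these values were −113 bp and 17.9%, and −57 bp and 30%. The interval of the assembly genes overlaps that of the cytoplasmic ribosomal proteins in all 3 lists, and that of the translation factors does in replicate 3 (54.4 to 80.5). No test of the difference was run.

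The bound assembly genes were led by eIF6, which keeps the large subunit from joining too early, with a signal of 3517.52 at −105 bp, and Ns2, a nucleostemin-like GTPase, with 3122.2 at −169 bp. Lower signals were found at NHP2 (836.456), nop5 (778.944), Ns4 (495.951), Nopp140 (374.78), Non1 (325.852) and Surf6 (221.603), among others. Most lay above the median of the cytoplasmic ribosomal proteins. Rack1, a scaffold on the small subunit, had 365.22 at 26 bp and was the only one of the 10 that close to its start. Myc, which drives ribosome production in flies, was outside the IDR-thresholded list, with 84.839 in the pooled list, 25.5915 in replicate 1 and 59.8486 in replicate 3. The other 16 were not bound in the IDR-thresholded list.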

How the data were processed

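Peaks of anti-GFP ChIP-seq were analysed from 2 biological replicates of 1 group. Per the README deposited with each sample, the authors called peaks for replicate 1, replicate 3 and the pooled alignments against the same control file on dm6, and derived the IDR-thresholded list from these. The sources used here do not give the peak caller, the IDR threshold or the read filters. The deposited signal of each peak (column 7) is comparable within a list only, and the authors' column 10 gives the summit as an offset from the peak start. All per-sample columns with these values were used, and no read totals are in the lists, so the depth is unknown.

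Genes came from Ensembl 115 (BDGP6.54), with 18164 genes on 6 arms, and sequence from the RefSeq Release 6 genome. A summit 500 bp or less from any start counted as binding of that gene. Positions use the closest summit, and signals, ranks and sharing use the strongest. Counts, exact Clopper-Pearson 95% intervals and medians were computed with Python 3.11.15, pandas 2.3.3, numpy 2.4.6 and scipy 1.17.1, and drawn with matplotlib 3.10.9. The assignment of summits to starts was tested on simulated data. Named genes were the 10 highest and 4 lowest IDR signals, paralogs, members missing from a replicate or from all lists, the 3 largest rank shifts each way, sharing neighbours and well-known members. A few genes that this rule selects are not reported here by name, and the counts include them. Other members are named as examples chosen after their values were seen. The members, lists and words were chosen with earlier results of these data known. Alternatives changed the window, the peak strength, the replicate, the summit or peak, the starts, the annotation and the members.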

Additional observations from a re-analysis of the deposited data

How the results depend on the processing

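Each of the 6 main values was recomputed under several alternatives, 54 in all. In 41 the direction was kept and the value stayed within 1.5 times for a count, or within 1 SD of the replicates for others. The SD was 29.7 bp for the position, 0.343 for the signal ratio and 7.43 percentage points for sharing. Each SD rests on only 2 values, those of the whole replicate lists. The same lists were also scored as alternatives, so the 41 are not an independent measure of stability. In 8 the value moved further and in 5 the direction turned. The 60 bound genes became 59 with a window of 200 bp, 63 with 1000 bp and 62 with any base of the peak. The count stayed at 60 with RefSeq starts, with the 5′ end alone or without the symbols ending in -like. No gene with a -like symbol was bound in the IDR-thresholded list, so leaving these out could not change the count. The shares of all protein-coding genes under these settings are not given here, so whether the excess of the members over them held was not tested. In the stronger 50% of IDR-thresholded peaks the count was 18, with 14 large and 4 small subunit genes. That setting keeps fewer peaks, and 12.6% of all protein-coding genes were bound in it, against 21.5% in the whole IDR-thresholded list. The count of members thus fell more steeply than that of all protein-coding genes. With 1 replicate left out the whole list of the other, of 30000 peaks, was used, and the count ranged from 54 to 80 (large subunit 30 to 47, small subunit 24 to 33). Among the strongest 9657 peaks of each replicate, as many as the IDR-thresholded list holds, it ranged from 41 to 72 (large subunit 24 to 43, small subunit 17 to 29). The median position of −22 bp ranged from −28.5 to 13.5 bp in the whole replicate lists. It was 9 bp among the strongest 9657 peaks of replicate 3, −9 bp in the whole pooled list and −38.5 bp in the stronger 50% of peaks. The ratio of the members' median signal to that of all bound protein-coding genes was 0.747, and ranged from 1.07 to 1.55 in the whole replicate lists and was 1.28 in the whole pooled list, which add weaker peaks. The share of summits also near another gene, 56.7%, was 25.4% with a window of 200 bp and 88.9% with 1000 bp. It was 72.2% in the stronger 50% of peaks and 70.7% among the strongest replicate 1 peaks. In the whole replicate lists it ranged from 48.8% to 59.3%. The window sets how far a neighbour may lie; for the other changes the cause was not tested. No paired analysis was possible because there is 1 group and no test. Depth is unknown, so whether a member without a summit would gain one with more reads was not tested.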
